A study of Homo sapiens with 4 samples.

Results

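Liver cells burn fatty acids through a fixed order of steps, and 33 genes of that route and of its control by the PPAR receptors were followed here in Hep3B cells, a human hepatocellular carcinoma line, after knockdown of UNC50. The genes were chosen by name from a list, and each was read from its probe with the highest mean log2 signal, as 3 of the 33 had more than 1 probe. Of the 33 genes, 32 passed the filter on dim probes, out of 25148 genes that passed it on the whole array. ACADL, the long-chain acyl-CoA dehydrogenase, did not pass, as its signals were 10.3 with the mock hairpin and 6.30, 6.30 and 11.8 with the UNC50 hairpins, and it was well above background with shR-749 alone.

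The study asked which genes respond when UNC50, a membrane protein of the Golgi apparatus, is lowered in these cells. Total RNA was taken from Hep3B cells that had received a plasmid for a mock hairpin (shR-MOCK, 1 array) or for 1 of 3 hairpins against the UNC50 mRNA, shR-467, shR-554 and shR-749, named after their target positions at 467, 554 and 749 bp (1 array each). All 4 cultures carried a hairpin plasmid. The study describes puromycin enrichment of UNC50 knockdown cells and names shR-MOCK, shR-554 and shR-749 among the cells so selected. Those arrays therefore report on a selected population of cells. It does not name shR-467 there, so whether that culture was selected alike is not stated. Nothing in the labels speaks of repeated cultures, so any p-value measures only the spread between these samples. The 3 hairpins served as replicates of knockdown, the spread between them includes what belongs to a single hairpin, and the spread between mock cultures is not known.

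Values are log2 signals minus the 75th percentile of their array, and a difference is always hairpin minus mock on that log2 scale. Values with the hairpins are given in the order shR-467, shR-554, shR-749 throughout. The share of spots well above background was 67.6% to 73.6% per array, no spot was saturated, and all 4 arrays lay on 1 slide read in 1 scan. The signal of UNC50 itself was 5010 on the mock array and 1050, 853 and 947 with the hairpins, a mean difference of -2.45 ± 0.40 (SD, n = 3 hairpins). All 9 hepatocyte and hepatoma markers examined were well above background on every array. Of the 9, 3 (AFP, APOA1 and TTR) were at least 1.5-fold higher on average, beside 2.28% of all tested genes. APOA1 and TTR were so with every hairpin, and 1.77% of all tested genes passed 1.5-fold in one direction with every hairpin. The summed scaled signal of the 9 was 415 on the mock array against 498 to 590 on the knockdown arrays. Of the 4 markers of stellate cells and fibroblasts 0 passed the filter, and COL1A1, COL3A1 and ACTA2 were not well above background on any array. The remaining marker, PDGFRB, was well above background with shR-554 and shR-749 only. Its signals were dim, at 5.73 on the mock array and 5.25, 25.2 and 19.8 with the hairpins. With shR-554 and shR-749 the spots of PDGFRB lay far apart, so no fold is given. Summed scaled signals of the adipocyte, skeletal muscle, macrophage and endothelial lists were 0.653, 0.487, 1.68 and 0.225 on the mock array, and 0.517 to 0.683, 0.480 to 0.511, 1.70 to 2.98 and 0.247 to 0.351 with the hairpins. Most of the macrophage sum came from CD14, with signals of 1750 on the mock array and 2743, 2595 and 1820 with the hairpins. Most of the adipocyte sum came from LIPE, at 673 on the mock array. The part of these lists in the results was not tested.

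In this route, fatty acids are taken up by carriers such as CD36 and activated to acyl-CoA by the ACSL enzymes. The carnitine shuttle carries long chains into mitochondria, where the enzymes of the beta-oxidation spiral shorten them step by step and hand electrons to the electron transfer flavoprotein, while peroxisomes shorten very long and branched chains. PPARA, the fatty acid-sensing nuclear receptor of the liver, pairs with RXRA and switches on many of these genes, and surplus fatty acid is stored in lipid droplets.

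With UNC50 lowered, most of the route averaged close to its mock level over the hairpins. The genes farthest above that level were 2 enzymes of fatty acid activation, ACSL3 and ACSL4, and the lipid droplet gene CIDEC. These 3 of 32 genes were at least 1.5-fold higher than mock on average over the hairpins, a share of 9.38%, where 2.28% of all tested genes were. In a bulk sample more RNA per cell and more cells with the RNA cannot be told apart. None of the 32 was at least 1.5-fold lower on average, a direction taken by 7.69% of all tested genes. All 32 were well above background on every array, and among the 21497 genes of which this was true the shares were 2.34% higher and 2.93% lower, or 1.00% and 1.13% of all tested genes with normexp background correction. With that correction 2 of the 32 genes were at least 1.5-fold higher and 0 lower. Without it, and counted in either direction, the share of the 32 was 9.38%. That compares with 9.98% of all tested genes and 5.27% of those well above background on every array. No gene of the route differed by 1.5-fold or more in one direction with all 3 hairpins, which 1.77% of all genes did. The mean difference was within 0.3 of mock, in either direction, for 27 of the 32 genes, and 21 stood above mock and 11 below. These 27 include genes whose hairpins lay far apart on both sides of mock, such as CD36, FABP1 and ACSL1. The mean was larger than the SD between hairpins for 34.4% of the 32 genes, beside 35.0% of all genes tested. Over the 32 genes the median of the mean differences was 0.14, beside -0.03 over all genes tested, and without shR-467 the medians were 0.00 and -0.05.

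The fit across all genes in limma called 0 of the 32 genes at an adjusted p under 0.05, and 0% of all tested genes. At an unadjusted p under 0.05 limma listed ACSL3 and CIDEC, 2 of the 32, or 6.25%, where 1.52% of all genes were listed. That count depended on the fit. It was smaller in limma without the trend, without shR-467 or with the mean over a gene's probes, and larger without shR-554. The share of all genes listed differed between these fits too. For each of the 32 genes the adjusted p from limma was 0.9998. With 1 mock array against 3, an exact permutation test cannot give a p below 0.25, so the sizes below are to be read against the spread between hairpins.

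**Figure D1:**
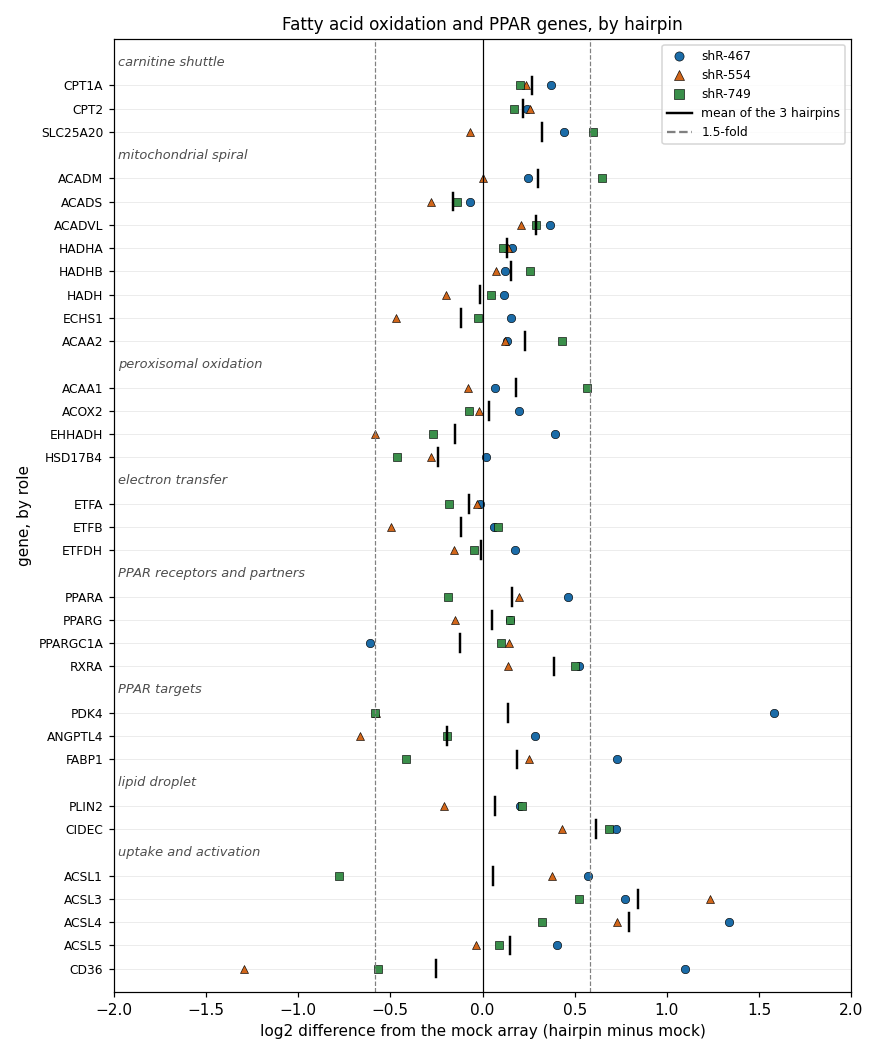
Log2 difference from the mock array for the 32 genes that passed the filter, grouped by role, with 1 symbol per hairpin, a black bar at the mean of the 3 hairpins and dashed lines at 1.5-fold. ACSL3, ACSL4 and CIDEC have means beyond the upper dashed line, while the symbols of CD36, PDK4 and ACSL1 lie on both sides of 0.

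Among the enzymes that activate fatty acids, ACSL3 had the largest mean difference of all 32 genes. It encodes an acyl-CoA synthetase of the endoplasmic reticulum and lipid droplets. The mock array gave a signal of 1810, and the hairpins gave 2695, 5275 and 2619. All 3 knockdown arrays stood above the mock array, with differences of 0.77, 1.23 and 0.52 and a mean of 0.84 ± 0.36 (SD, n = 3 hairpins). The probe lay at chromosome 2, 223807495 to 223807554 of hg19, and its 2 spots differed little on each array, with an SD of at most 0.05.

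ACSL4, which prefers arachidonic acid and other polyunsaturated chains, had a signal of 3320 on the mock array and of 7314, 6823 and 4189 with the hairpins. The differences of 1.34, 0.73 and 0.32 averaged 0.80 ± 0.51 (SD, n = 3), from a probe at chromosome X, 108885270 to 108885329 of hg19. The order of the hairpins was not that of ACSL3, as ACSL4 was highest with shR-467 and ACSL3 with shR-554. With shR-749 both were less than 1.5-fold higher. Without shR-467 the mean of ACSL4 was 0.53 and no longer past 1.5-fold, while that of ACSL3 was 0.88.

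The other synthetases measured differed less or in both directions. ACSL5, found on mitochondria and the endoplasmic reticulum, had a mean difference of 0.15 ± 0.22 (SD, n = 3). ACSL1, the main synthetase of liver, had mock signal 1778 and 2309, 2863 and 1046 with the hairpins, so that it stood above mock with shR-467 and shR-554 (0.57 and 0.38) and below it with shR-749 (-0.78). Its 10 spots differed by an SD of at most 0.06 on any array. A difference between 2 genes of the same array does not depend on the scaling: the difference of ACSL3 exceeded that of ACSL5 by 0.37, 1.27 and 0.43 with the hairpins, and that of ACSL4 did so by 0.93, 0.76 and 0.24.

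CD36, the fatty acid translocase of the cell surface, was the gene on which the hairpins disagreed most among those measured in 10 spots. The median signal over the spots was 684 on the mock array and 1295, 354 and 467 with the hairpins. The ranges of single spots did not overlap between any 2 arrays, running from 660 to 705, from 1140 to 1390, from 304 to 371 and from 449 to 480. CD36 was therefore 214% of mock with shR-467 but 40.8% and 67.6% with shR-554 and shR-749, a mean difference of -0.25 ± 1.23 (SD, n = 3). An SD between hairpins of this size or more was found for 1.97% of all tested genes. The agreement of the spots covers the error of the array surface and not that of the culture.

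The probes of CD36 and of 3 further genes are shown because the comparisons rest on what these 60 bases capture, written 5′ to 3′ as in the array files.
CD36: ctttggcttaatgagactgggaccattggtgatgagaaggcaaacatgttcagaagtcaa
CPT1A: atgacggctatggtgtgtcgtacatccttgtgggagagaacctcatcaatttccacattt
FABP1: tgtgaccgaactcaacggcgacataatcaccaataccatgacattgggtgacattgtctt
CIDEC, second probe: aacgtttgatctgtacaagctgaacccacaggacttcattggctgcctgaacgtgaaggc
On hg19 the CPT1A probe lay at chromosome 11, 68527063 to 68527122, and the second CIDEC probe at chromosome 3, 9911632 to 9911691. The other two are given by transcript position, from base 1614 for CD36 and base 341 for FABP1.

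**Figure D2:**
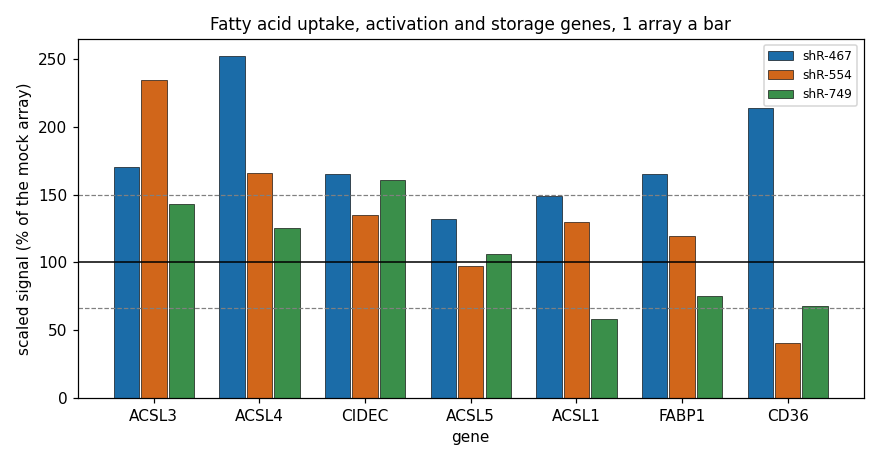
Scaled signal with each hairpin as a percentage of the mock array, 1 array a bar, for genes of fatty acid uptake, activation and storage, with the solid line at the mock level and dashed lines at 1.5-fold higher and lower. All bars of ACSL3, ACSL4 and CIDEC stand above the mock level, whereas CD36 ranges from 40.8% to 214%.

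The carnitine shuttle stood slightly above mock. CPT1A, the rate-limiting enzyme that couples long chains to carnitine, had a signal of 1229 on the mock array and of 1389, 1798 and 1427 with the hairpins. After scaling every hairpin lay above mock, with a mean difference of 0.27 ± 0.09 (SD, n = 3). CPT2, which reverses that step inside the mitochondrion, stood 0.22 ± 0.04 above mock. SLC25A20, the carrier between both, averaged 0.32 ± 0.35 and was higher with shR-467 and shR-749 and level with shR-554 (-0.07).

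In the mitochondrial spiral 5 of the 8 genes that passed the filter were lowest on the mock array. So were 17.5% of all tested genes and 20.2% of genes well above background on every array. The mean differences of the 5 were at most 0.30. The trifunctional protein is made of HADHA and HADHB, which hold its hydratase, dehydrogenase and thiolase activities. HADHA had signals of 1889 on the mock array and 1843, 2577 and 2055 with the hairpins, and its mean difference of 0.13 ± 0.03 (SD, n = 3) had the smallest spread of the 32 genes. HADHB lay 0.15 ± 0.10 above mock. The genes are neighbours read in opposite directions from starts 307 bases apart, by the RefSeq promoter windows of GRCh38.p14, and their windows overlap in 194 bases at chr2:26244689-26244882.

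ACADM, the medium-chain acyl-CoA dehydrogenase, had signals of 945 on the mock array and 978, 1174 and 1495 with the hairpins. It was past 1.5-fold with shR-749 (0.65) and at the mock level with shR-554 (0.00), and the mean was 0.30 ± 0.33 (SD, n = 3). ACADVL, its very-long-chain counterpart, was higher with every hairpin (0.29 ± 0.08), as was the thiolase ACAA2 (0.23 ± 0.17). The short-chain enzyme ACADS was lower with every hairpin (-0.16 ± 0.11), at signals below 100. HADH and ECHS1 did not keep a direction, with means of -0.01 ± 0.17 and -0.12 ± 0.32.

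The genes that pass the electrons on lay at or just below mock. ETFA and ETFB, the subunits of the electron transfer flavoprotein, and ETFDH, which delivers the electrons to ubiquinone, had mean differences of -0.07 ± 0.09, -0.12 ± 0.33 and -0.01 ± 0.17. ETFA was below mock with every hairpin, by at most 0.18. ETFB owed its mean to shR-554 (-0.49), the hairpin with which ECHS1 was lowest too (-0.47).

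Genes of peroxisomal oxidation lay on both sides of mock. The thiolase ACAA1 averaged 0.18 ± 0.34 and the branched-chain oxidase ACOX2 0.03 ± 0.15. EHHADH and HSD17B4, the bifunctional enzymes that follow the oxidase, averaged -0.15 ± 0.50 and -0.24 ± 0.25 (SD, n = 3 each). EHHADH was higher with shR-467 (0.40) and lower with shR-554 (-0.58). No gene of this group lay on the same side of mock with all 3 hairpins. Among all tested genes the mock array was lowest for 17.5% and highest for 20.6%, or 20.2% and 18.4% of those well above background on every array.

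The receptors differed among themselves. RXRA, the common partner of the PPAR receptors, had signals of 6992 on the mock array and 8785, 9538 and 9978 with the hairpins. It was above mock with every hairpin, at 0.53, 0.14 and 0.50, a mean of 0.39 ± 0.22 (SD, n = 3) that did not reach 1.5-fold. PPARA itself had signals of 691 on the mock array and 833, 983 and 611 with the hairpins, and averaged 0.16 ± 0.33, above mock with shR-467 and shR-554 and below it with shR-749. A second PPARA probe, much dimmer, averaged 0.07 ± 0.46 and gave the same signs.

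PPARG, better known from fat cells, stayed near mock, with signals of 2277 on the mock array and 2200, 2548 and 2549 with the hairpins, and a mean of 0.05 ± 0.17 over its 10 spots. Its second probe averaged -0.02 ± 0.30. PPARGC1A, a coactivator that raises mitochondrial oxidation, was dim, at 89.9 on the mock array and 51.4, 123 and 97.4 with the hairpins. It was below mock with shR-467 (-0.61) and slightly above with the others (0.14 and 0.10). With shR-467 it stood at 2.01 times the dimmest signal classed as well above background there.

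The targets of PPAR signalling lay on both sides of mock. FABP1, the liver fatty acid-binding protein, was bright, with signals of 75744 on the mock array and 109499, 111996 and 57198 with the hairpins. It stood at 166%, 119% and 74.8% of mock, so that the mean of 0.19 ± 0.58 (SD, n = 3) was smaller than its spread. FABP1 and ACSL1 followed the same order over the hairpins, and their differences from mock were within 0.36 of each other with each one. ANGPTL4, a secreted inhibitor of lipoprotein lipase, averaged -0.19 ± 0.48.

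PDK4, the kinase that shuts pyruvate out of oxidation, cannot be read from its mean, since its 2 spots disagreed. One spot gave 80.9 on the mock array and 93.8, 87.7 and 69.8 with the hairpins, all well above background. The other gave 11.1 and then 65.4, 7.06 and 5.84, and was well above background with shR-467 alone. The difference of 1.58 with shR-467 came mostly from the second spot, as the first alone gave 0.41, -0.20 and -0.23, a mean of 0.00 ± 0.36 (SD, n = 3).

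**Figure D3:**
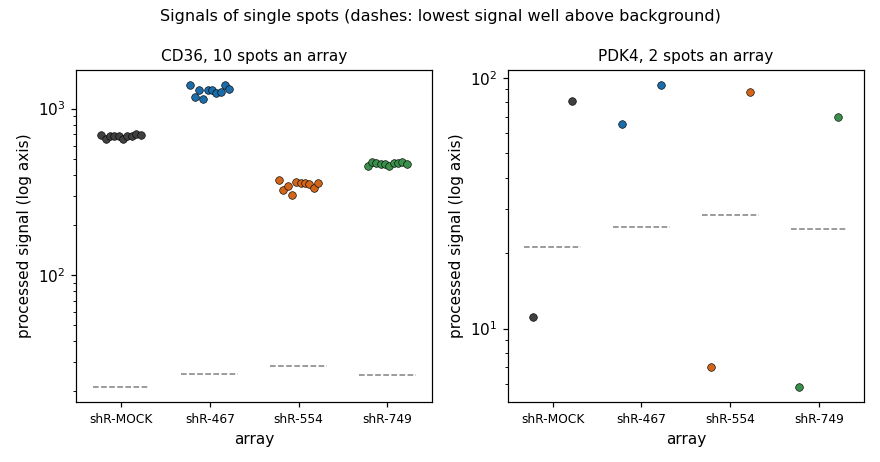
Processed signal of each spot, without scaling and on a log axis, for CD36 (10 spots) and PDK4 (2 spots) on the 4 arrays, with dashes at the lowest signal well above background. The CD36 spots form tight and separate clusters on each array, and the 2 spots of PDK4 lie close only with shR-467.

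In the lipid droplet, CIDEC, which promotes droplet fusion, had signals of 1510 on the mock array and 2180, 2530 and 2450 with the hairpins. Every hairpin stood above mock, at 0.73, 0.43 and 0.69, for a mean of 0.61 ± 0.16 (SD, n = 3) from 1 spot at chromosome 3, 9908399 to 9908458 of hg19. The second probe, printed above, was also higher with every hairpin but by less, at 0.32 ± 0.12, and a probe annotated to CIDEC 145 kb away was dim and averaged 0.15 ± 0.31. Averaged over its probes CIDEC reached 0.36 and did not pass 1.5-fold, nor did it with normexp background correction, without shR-467 (0.56) or without shR-749 (0.58). PLIN2, which coats the droplets, had signals of 8624 on the mock array and 8655, 9267 and 10100 with the hairpins, and stayed near mock (0.07 ± 0.24).

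The mock array had the lowest scaled value of the 4 arrays for 11 of the 32 genes, or 34.4%, beside 17.5% of all genes tested. It had the highest for 2, ACADS and ETFA, or 6.25%, beside 20.6% of all genes. Among the 21497 genes well above background on every array, as all 32 were, it was lowest for 20.2% and highest for 18.4%. The 11 were CPT1A, CPT2, ACADM, ACADVL, HADHA, HADHB, ACAA2, RXRA, ACSL3, ACSL4 and CIDEC, and 8 of them had mean differences below 0.4. With 3 arrays in place of 4 such positions are more common. Without shR-554 the mock array was lowest for 18 of the 32 genes, beside 26.9% of all genes, and without shR-467 it was highest for 10 of the 32, beside 38.3% of all genes. As all differences use the same mock array, a single mock culture low in these RNAs and a rise after knockdown cannot be told apart.

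Each hairpin was also counted alone. With shR-467, 6 genes were at least 1.5-fold higher (PDK4 as the mean of its discordant spots, FABP1, ACSL3, ACSL4, CD36 and CIDEC), or 18.8%, and PPARGC1A alone was lower, beside 7.29% higher and 6.77% lower among all genes. With shR-554, ACSL3 and ACSL4 were higher and ANGPTL4 and CD36 lower, beside 4.41% and 16% among all genes. With shR-749, SLC25A20, ACADM and CIDEC were higher and ACSL1 lower, beside 5.4% and 10.4%. The median difference over the 32 genes was 0.24, -0.03 and 0.09 with the hairpins, against 0.03, -0.04 and -0.05 over all genes.

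**Figure D4:**
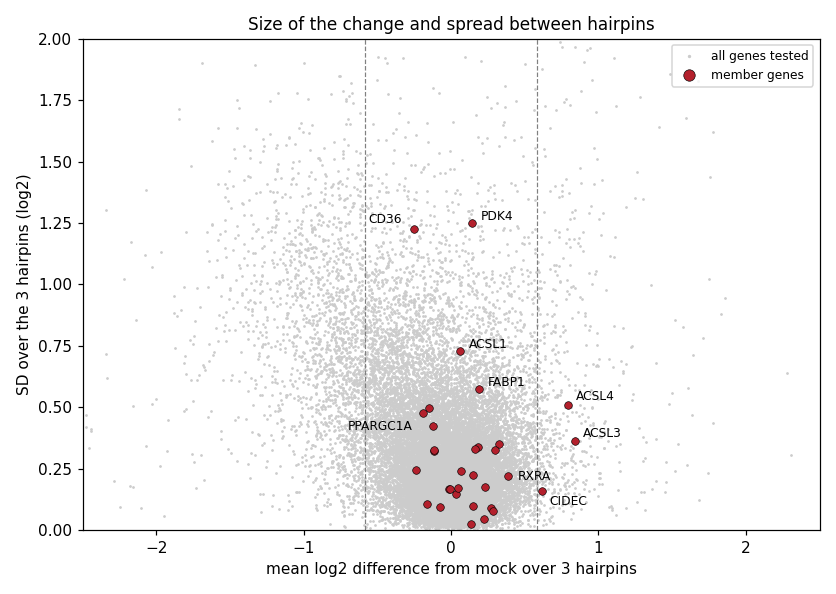
Mean log2 difference over the 3 hairpins against its SD for all tested genes (grey) and the 32 genes of the route (red), with dashed lines at 1.5-fold (axes limited to a mean of 2.5 in size and an SD of 2). ACSL3, ACSL4 and CIDEC lie beyond the upper dashed line, and CD36 and PDK4 combine means near 0 with SDs of 1.23 and 1.25. For PDK4 the SD was 0.36 in the spot that was well above background on every array.

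Other genes of the same pathways were followed as 5 lists of 79 genes, of which 69 passed the filter. Of these, 4 were at least 1.5-fold higher and 3 lower on average, together 10.1% beside 9.98% of all tested genes, and their median difference was -0.01. Of the 3 lower genes, FABP4 and ADIPOQ passed the filter through the mock array, where they were brightest, and with the filter on all 4 arrays 4 of 65 were higher and 1 lower. By list, 2 of 19 mitochondrial and ketone genes were higher, 0 of 14 peroxisomal genes passed, 1 of 12 PPAR partners was higher, 1 of 15 PPAR targets and droplet genes was higher and 3 lower, and 0 of 9 uptake and activation genes passed. The gene past 1.5-fold with every hairpin, FABP4, cleared the background on the mock array alone (13.4 against 5.44, 6.84 and 5.66), so no fold is given.

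The other genes past 1.5-fold on average are named after their values were seen. ACADSB, a dehydrogenase of branched and short chains, was higher with every hairpin (0.75 ± 0.27), and so was CREB3L3, a liver transcription factor that works with PPARA (0.76 ± 0.21). BDH1, of ketone body synthesis, and APOA5, which governs plasma triglyceride, were higher with shR-467 and shR-749 but not with shR-554, with means of 0.94 ± 1.04 and 0.60 ± 0.69. The BDH1 probe was dim, at 49.9 on the mock array. VNN1, a pantetheinase and PPARA target, was lower with every hairpin (-1.01 ± 0.50). Its signals were dim too, at 91.6 on the mock array and 40.5, 39.4 and 63.8 with the hairpins. With normexp background correction 0 of the 69 pathway genes were at least 1.5-fold lower on average. That setting adds 50 to every signal before quantile normalization. Adding 50 shrinks folds at signals this dim by construction, so the 0 says little about the lower genes. ADIPOQ, an adipocyte hormone, averaged -0.65 ± 0.52 at signals of 15.9 to 29.9, well above background on 2 of the 4 arrays.

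The bases before the transcription start of the genes at least 1.5-fold higher on average, and of FABP1, are shown to set their sequence beside these values. PPAR and RXR bind as a pair to direct repeats, written AGGTCA, 1 base of any kind, AGGTCA. This motif was searched on both strands in the 250 bases before each start, with up to 2 mismatches over its 12 fixed letters. A match was present in 2.57% of 35116 RefSeq windows of GRCh38.p14 and in 4 of the 51 windows of the 29 genes that had one (FABP1, ACAA2 and 1 window each of ACSL1 and CD36). The half-site AGGTCA alone, which overlaps the longer motif, was in 12.1% of all windows and in 5 of the 51. Capitals mark the match, which stands on the opposite strand and begins 68 bases before the start of FABP1, with 2 mismatches.
FABP1, chr2:88128063-88128312, minus strand: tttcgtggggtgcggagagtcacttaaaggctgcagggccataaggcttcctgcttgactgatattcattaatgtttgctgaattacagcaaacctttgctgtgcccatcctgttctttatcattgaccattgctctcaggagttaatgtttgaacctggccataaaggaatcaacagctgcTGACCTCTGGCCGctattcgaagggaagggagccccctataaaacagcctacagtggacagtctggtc
ACSL3, chr2:222860786-222861035, plus strand: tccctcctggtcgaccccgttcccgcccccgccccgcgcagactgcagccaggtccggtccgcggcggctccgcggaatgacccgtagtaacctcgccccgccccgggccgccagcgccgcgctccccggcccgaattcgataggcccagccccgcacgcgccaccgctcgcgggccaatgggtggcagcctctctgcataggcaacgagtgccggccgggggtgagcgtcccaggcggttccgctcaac
ACSL4, chrX:109733258-109733507, minus strand: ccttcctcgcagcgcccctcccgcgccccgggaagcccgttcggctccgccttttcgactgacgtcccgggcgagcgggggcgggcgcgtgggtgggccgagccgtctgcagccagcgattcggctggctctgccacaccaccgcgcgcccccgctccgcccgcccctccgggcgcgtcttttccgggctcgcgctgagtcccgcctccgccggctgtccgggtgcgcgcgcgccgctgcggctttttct
CIDEC, chr3:9880254-9880503, minus strand: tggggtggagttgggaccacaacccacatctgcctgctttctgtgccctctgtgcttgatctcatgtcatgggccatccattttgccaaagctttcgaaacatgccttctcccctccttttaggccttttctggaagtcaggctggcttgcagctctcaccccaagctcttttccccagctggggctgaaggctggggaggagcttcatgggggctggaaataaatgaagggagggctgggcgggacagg
The ACSL3 and ACSL4 windows were rich in G and C (75.2% and 77.2%) and held 35 and 42 CG dinucleotides, whereas the CIDEC and FABP1 windows had 56.4% and 48% G and C and 2 and 4 such dinucleotides. The CIDEC window is 1 of 2 that RefSeq gives for the gene. None of the windows of ACSL3, ACSL4 and CIDEC held a match within 2 mismatches. A match is a feature of these letters only, and binding was not measured.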

How the data were processed

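Cy3-labelled RNA from 4 Hep3B cultures was hybridised to 1-colour Agilent arrays, and the authors deposited for each array the intensity of every spot from Agilent Feature Extraction 10.7.1.1, with background already subtracted in the processed signal. They also deposited a table of log2 values of the same arrays, used as an alternative. Groups follow the labels. Spots marked as outliers were left out, log2 processed signals were set relative to the 75th percentile of the spots other than controls, and spots of a probe were averaged. A probe was kept when at least 0.5 of its spots were well above background with the mock hairpin, or likewise with each of the 3 UNC50 hairpins, and a gene took its kept probe with the highest mean. Differences were tested over 25148 genes with limma 3.58.1 in R 4.3.3 (lmFit, eBayes with trend, Benjamini-Hochberg adjustment, 2 residual degrees of freedom), a fit that gives the single mock array the spread of the hairpins. Only the limma step was tested on simulated data, with known changes added to gene values in which the mock array had the spread of the hairpins. That test does not cover scaling, the filter or the choice of probe. It cannot speak to a different spread between mock cultures. Python 3.11.15, numpy 2.4.6 and pandas 2.3.3 were used. Promoter windows are those of RefSeq on GRCh38.p14, and probe positions follow the array annotation (hg19).

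The 33 genes, the pathway lists and the marker lists were chosen with earlier results of these data known. All 33 are accounted for. Signals on every array are given for genes past 1.5-fold and for CPT1A, ACADM, HADHA, PPARA, PPARG, PPARGC1A, RXRA, PLIN2 and FABP1, and pathway genes are named when every hairpin passed 1.5-fold. CD36, ACSL1, PDK4 and ACADL were given in full after their values were seen. Alternatives were other scalings and background corrections, other filters, marked spots kept, the mean over probes and a 2-fold threshold. Further ones were limma without the trend, the methods' t-test and each hairpin left out. Normexp background correction used an offset of 50 and was followed by quantile normalization.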

Additional observations from a re-analysis of the deposited data

How the results depend on the processing

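The number of genes of the route past 1.5-fold on average was 3, and was 2 or 3 under each scaling, background correction and filter, 0 at 2-fold and 2 to 3 with each hairpin left out. Without shR-467 the pair was ACSL3 and CD36, the latter lower. The number past 1.5-fold with every hairpin was 0, and 0 to 2 with a hairpin left out (CIDEC without shR-554, ACSL3 and ACSL4 without shR-749), where fewer hairpins must pass. The median over the 32 genes ranged from 0.00 to 0.17 with a hairpin left out. The mock array was lowest for 12 to 18 of the 32 genes and highest for 2 to 10 with a hairpin left out, counts added after seeing the data. At an adjusted p under 0.05, limma called 0 of the 32 genes under every alternative and without the trend, and the methods' t-test called 0.

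Of 322 alternative values of single genes, 320 stayed within the spread between hairpins. The exceptions were CPT2 with normexp (0.16) and CIDEC averaged over its probes (0.36). Many of the values could not have left that spread. A mean with a hairpin left out stays within the spread of the same hairpins by construction, and averaging over probes leaves genes with a single probe unchanged. The count is therefore no measure of robustness. UNC50 ranged from -2.64 to -2.24 with a hairpin left out. Over all genes 2509 passed 1.5-fold, but 535 with normexp and quantile normalization, 1531 with low signals raised, 1132 with the filter on all 4 arrays, 5361 with no filter and 686 at 2-fold. The share of lower genes among them was 77.1%, and 69.9% with quantile normalization, 52.9% with normexp, 59.9% with low signals raised, 55.6% with the filter on all 4 arrays and 62.8% with no filter. Of the 69 pathway genes 7 passed, against 2 with normexp, 2 at 2-fold and 6 to 11 with a hairpin left out. Slide and scan could not be fitted as a block, each being the same for the 4 arrays. No paired analysis was possible because the mock group has 1 array. The cause of these shifts was not tested beyond fewer genes or hairpins entering a count. Dim probes, here ACADL, ACADS, PPARGC1A, PDK4 and EHHADH, are limited by their signal over background.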
